A study of Mus musculus with 22 samples.

Results

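The genes described are 9 members of the angiotensin, endothelin and nitric oxide systems, measured in mouse heart. They were Agt, Ace and Agtr1a, then Edn1, Edn3, Ece1, Ednra and Ednrb, and Nos3. The choice was by name, taking each probe whose transcript accession maps to 1 of these symbols, and this gave 14 of the 41174 probes on the array. Of the 9 genes, 8 had a probe well above background in the heart channel on at least 5 of 22 arrays and so were among the 15503 genes tested. The remaining gene was Edn3, whose 2 probes were well above background on 0 of 22 arrays.

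RNA from the hearts of 22 female C57BL/6 mice, 1 mouse per array, was measured against a common reference RNA on Agilent 2-colour arrays. The groups were nano-TiO2 day 1 (5 mice), control day 1 (5 mice), nano-TiO2 day 28 (6 mice) and control day 28 (6 mice). Every mouse was anaesthetised with Hypnorm and Dormicum and received 40 µl once into the trachea. The nano-TiO2 mice received 162 µg of titanium dioxide nanoparticles, suspended in saline that held cell-free lavage fluid, and the control mice received that liquid without particles. The controls therefore carry the anaesthesia, the instillation and the lavage fluid too. The mice were bought at 5 to 7 weeks of age and kept for 1 to 3 weeks before the instillation, so day 28 mice were also older than day 1 mice, and age and time since instillation cannot be told apart. Hearts were cut into small pieces and frozen, and which piece of a heart gave the RNA is not stated in the labels.

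In the renin-angiotensin system, angiotensinogen is cut by renin and then by angiotensin-converting enzyme to angiotensin II, a peptide that constricts vessels and acts mainly through the type 1 receptor. In the endothelin system, a converting enzyme releases endothelin from its precursor, the type A receptor on muscle cells mediates constriction, and the type B receptor on endothelium mediates nitric oxide release and clearance of endothelin. Endothelial nitric oxide synthase makes nitric oxide, which relaxes vessels through soluble guanylate cyclase. Much of this signalling takes place in the vessel wall, between endothelium, smooth muscle and pericytes, and whole heart RNA mixes these cells with cardiomyocytes and fibroblasts. In such bulk RNA, fewer cells of a type and less RNA per cell cannot be told apart.

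Each value below is a log2 ratio of heart (Cy5) to reference RNA (Cy3, a pool of 11 mouse cell lines), so 1 unit is a doubling. The dyes were never swapped, which leaves a level against the reference open to dye bias but not a difference between groups. The extraction text of the labels names lung, so the tissue was checked: the heart muscle genes Myh6, Tnnt2 and Actc1 averaged 4.94, 5.64 and 5.94 above the reference and were well above background on 22 of 22 arrays. Sftpc and Sftpb, which encode surfactant proteins of the lung, reached that level on 0 of 22. Other lung epithelium genes reached it on some arrays. These were Sftpa1 and Sftpd, also surfactant genes, on 2 each, Cldn18 on 1, Scgb1a1 on 6 and Cyp2f2 on 8, with Foxj1 on 0. Some hearts nevertheless stood apart. The mean of 7 atrial genes (Nppa and Myl7 the brightest) was -3.14 in nano-TiO2 day 1 replicate 1, -3.03 in control day 1 replicate 2 and -3.03 in nano-TiO2 day 28 replicate 1, in log2 relative to the mean of all arrays. Nppa itself varied little between hearts (SD 0.22), against an SD of 1.16 to 2.58 for the other atrial genes. The lung epithelium list (Cyp2f2 and Scgb1a1 the brightest, 2 of the 8 genes with a probe tested) had its highest heart at -0.16 in the nano-TiO2 day 1 group, -0.29 in control day 1, -0.36 in nano-TiO2 day 28 and 3.96 in control day 28. The liver list (Ahsg and Alb the brightest, 6 of the 8 with a probe tested) was above 1 in 1 nano-TiO2 day 1 heart (1.47) and in 3 control day 28 hearts (2.88, 1.06 and 3.02), and the lung epithelium list was above 0.5 in 3 control day 28 hearts (3.82, 0.87 and 3.96). In all, 4 of the 6 control day 28 hearts were above one of these limits, as were 0 of 6 nano-TiO2 day 28 and 0 of 5 control day 1 hearts.

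All measured members except Edn1 lay clearly above the reference. Ednra averaged 3.59 ± 0.40 (SD, n = 22), a 12.1-fold excess over the reference, and Agtr1a 3.18 ± 0.44, a 9.06-fold excess. Agt averaged 2.00 ± 0.59, Nos3 1.68 ± 0.18, Ece1 1.47 ± 0.31, Ednrb 1.29 ± 0.35 and Ace 0.61 ± 0.15. Edn1 lay at 0.11 ± 0.21, which is close to the reference. These ratios depend on what the reference cells express and do not rank the genes among each other. Ednra and Agtr1a each had another probe that did not follow: the other Ednra probe was well above background on 0 of 22 arrays and the other Agtr1a probe on 11 of 22, at 0.18 ± 0.19. Of the 2 probes for Ace, 1 was well above background on 21 arrays and the other on 0. Edn3, a second endothelin peptide best known for its role in neural crest cells, lay at -0.06 ± 0.09 on 1 probe and -0.01 ± 0.10 on the other, with no array above background, so no level is given for it.

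**Figure D1:**
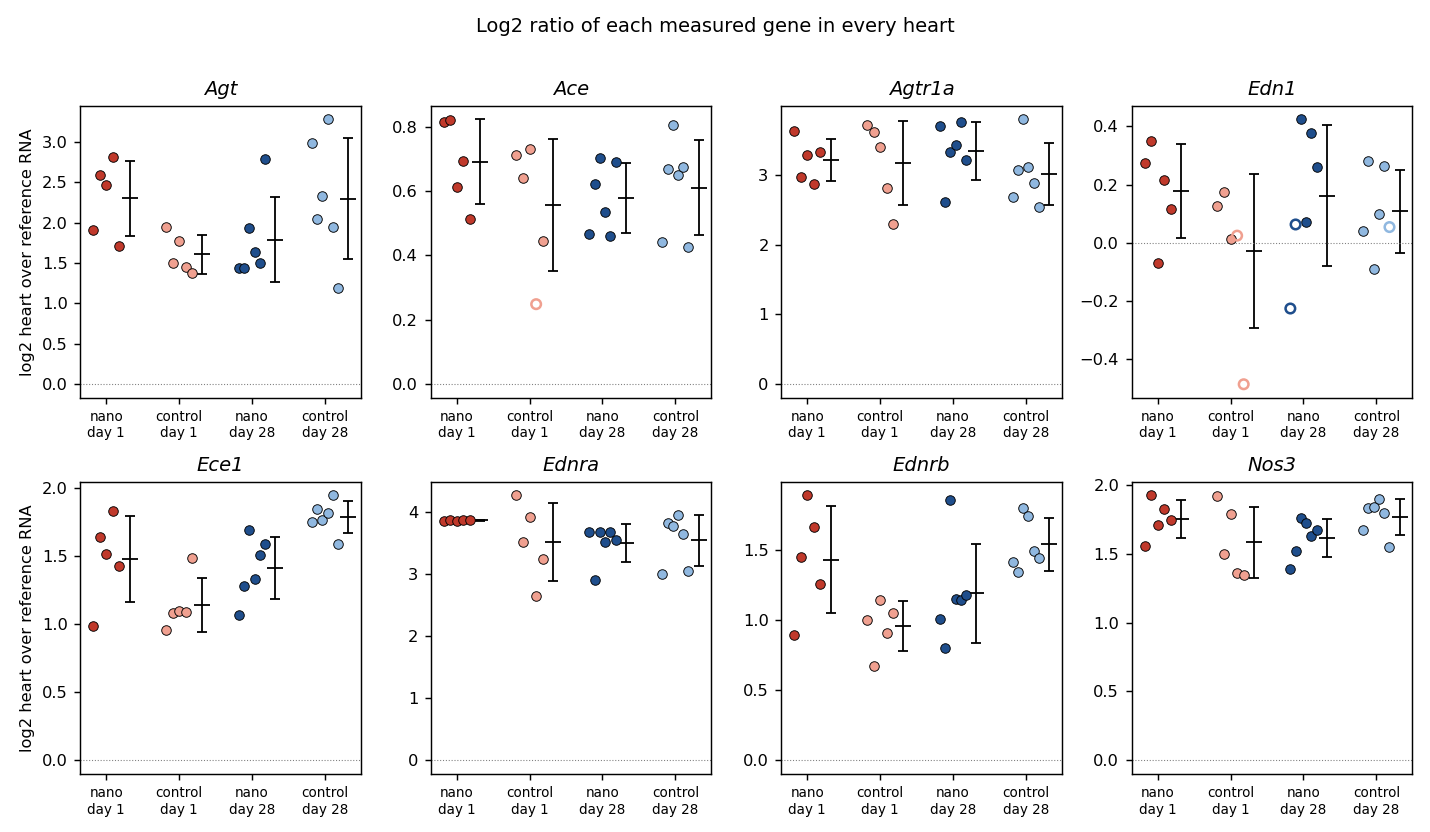
Log2 ratio of heart to reference RNA for the 8 measured genes, 1 point per heart, with nano-TiO2 left of control at each day; open points were not well above background, and the bars give mean and SD (n = 5 at day 1, n = 6 at day 28). In the Ece1 and Ednrb panels every control day 28 heart lies above every control day 1 heart, whereas the nano-TiO2 hearts of both days spread over both ranges.

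Angiotensinogen (Agt), the precursor of the angiotensin peptides, gave 1.91, 2.59, 2.47, 2.81 and 1.71 in the nano-TiO2 day 1 hearts, against 1.94, 1.496, 1.77, 1.44 and 1.38 in the control day 1 hearts. In the nano-TiO2 day 28 hearts it ran from 1.44 over a median of 1.57 to 2.79, against 1.19, 2.19 and 3.28 in the control day 28 hearts. At day 1 all 5 nano-TiO2 hearts lay above the mean of their controls and 3 above every control. At day 28 5 of 6 nano-TiO2 hearts lay below the control mean, with none outside the range of the controls, and 1 nano-TiO2 heart (replicate 6) stood high. By group mean the order was nano-TiO2 day 1 (2.30), control day 28 (2.30), nano-TiO2 day 28 (1.79) and control day 1 (1.60), and no neighbours in this order differed by more than the larger of their SD values (0.47, 0.75, 0.52 and 0.24 in that order).

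Ace, the enzyme that makes angiotensin II, varied little. It lay between 0.51 and 0.82 in nano-TiO2 day 1 hearts, 0.25 and 0.73 in control day 1 hearts, 0.46 and 0.70 in nano-TiO2 day 28 hearts and 0.43 and 0.80 in control day 28 hearts. All 4 ranges overlapped, and the group means from 0.56 ± 0.21 (control day 1) to 0.69 ± 0.13 (nano-TiO2 day 1) differed by less than the larger SD.

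Agtr1a, the main angiotensin II receptor of mouse heart and vessels, gave 3.63, 2.97, 3.27, 2.86 and 3.33 in nano-TiO2 day 1 hearts, against 3.72, 3.61, 3.39, 2.81 and 2.29 in control day 1 hearts. In nano-TiO2 day 28 hearts the lowest, median and highest values were 2.61, 3.37 and 3.75, against 2.53, 2.97 and 3.79 in control day 28 hearts. The groups overlapped almost entirely. The spread within a group, 0.30 to 0.60 (SD), exceeded every difference between neighbouring group means, which were 3.33 (nano-TiO2 day 28), 3.21 (nano-TiO2 day 1), 3.16 (control day 1) and 3.01 (control day 28).

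Endothelin-1 (Edn1), the main endothelin peptide of vessels, was dim. It was well above background in 5 of 5 nano-TiO2 day 1 hearts and 3 of 5 control day 1 hearts, and in 4 of 6 nano-TiO2 day 28 hearts and 5 of 6 control day 28 hearts. Its values ran from -0.07 to 0.35 in nano-TiO2 day 1 hearts, -0.49 to 0.18 in control day 1 hearts, -0.23 to 0.42 in nano-TiO2 day 28 hearts and -0.09 to 0.28 in control day 28 hearts. All groups overlapped. The means were 0.18 (nano-TiO2 day 1), 0.16 (nano-TiO2 day 28), 0.11 (control day 28) and -0.03 (control day 1), and neighbours differed by less than the larger SD.

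Ece1, the converting enzyme that releases the active endothelin peptide, gave 0.98, 1.64, 1.52, 1.83 and 1.43 in nano-TiO2 day 1 hearts, against 0.96, 1.08, 1.10, 1.09 and 1.49 in control day 1 hearts. In nano-TiO2 day 28 hearts the lowest, median and highest values were 1.07, 1.42 and 1.69, against 1.59, 1.79 and 1.95 in control day 28 hearts. At day 1, 3 of 5 nano-TiO2 hearts lay above every control. At day 28 all 6 nano-TiO2 hearts lay below the control mean and 5 of them below every control. The 2 control groups did not overlap. Group means ran from 1.79 ± 0.12 (control day 28) over 1.48 ± 0.32 (nano-TiO2 day 1) and 1.41 ± 0.23 (nano-TiO2 day 28) to 1.14 ± 0.20 (control day 1), and the nano-TiO2 means of the 2 days differed by less than their SD. The step to control day 1 at the low end exceeded the SD of both groups, and that from control day 28 to nano-TiO2 day 1 did not exceed the larger SD.

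Ednra, the type A receptor, gave 3.85, 3.86, 3.84, 3.87 and 3.86 in nano-TiO2 day 1 hearts, against 4.26, 3.52, 3.91, 2.64 and 3.24 in control day 1 hearts. In nano-TiO2 day 28 hearts the lowest, median and highest values were 2.90, 3.61 and 3.68, against 2.99, 3.71 and 3.94 in control day 28 hearts. The 5 nano-TiO2 day 1 hearts agreed to within an SD of 0.01, while the SD of the other groups was 0.30 to 0.62, and the control day 1 hearts lay on both sides of them. Every nano-TiO2 day 28 heart lay below every nano-TiO2 day 1 heart. The means were 3.86 (nano-TiO2 day 1), 3.54 (control day 28), 3.51 (control day 1) and 3.50 (nano-TiO2 day 28), and neighbours differed by less than the larger SD.

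Ednrb, the type B receptor, gave 0.89, 1.45, 1.88, 1.66 and 1.26 in nano-TiO2 day 1 hearts, against 1.00, 0.67, 1.14, 0.91 and 1.05 in control day 1 hearts. In nano-TiO2 day 28 hearts the lowest, median and highest values were 0.80, 1.15 and 1.85, against 1.34, 1.47 and 1.80 in control day 28 hearts. At day 1, 4 of 5 nano-TiO2 hearts lay above every control, and at day 28, 5 of 6 nano-TiO2 hearts lay below every control while replicate 3 lay above all of them. As for Ece1, the control groups did not overlap, and the order of the means was control day 28 (1.54 ± 0.19), nano-TiO2 day 1 (1.43 ± 0.38), nano-TiO2 day 28 (1.19 ± 0.35) and control day 1 (0.95 ± 0.18). Each step in this order was smaller than the larger SD of its pair. The other Ednrb probe, well above background on 22 of 22 arrays, gave a different order at the top and smaller gaps, at 1.02 ± 0.24 in nano-TiO2 day 1, 0.78 ± 0.20 in control day 1, 0.79 ± 0.40 in nano-TiO2 day 28 and 1.00 ± 0.18 in control day 28 hearts.

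Nos3, endothelial nitric oxide synthase, was read by 10 spots of 1 probe on each array. It gave 1.56, 1.92, 1.71, 1.82 and 1.75 in nano-TiO2 day 1 hearts, against 1.92, 1.496, 1.78, 1.36 and 1.35 in control day 1 hearts, and 1.39, 1.65 and 1.76 (lowest, median, highest) in nano-TiO2 day 28 hearts, against 1.55, 1.81 and 1.89 in control day 28 hearts. All 4 groups overlapped. At day 28 all 6 nano-TiO2 hearts lay below the control mean, and the means were 1.76 (control day 28), 1.75 (nano-TiO2 day 1), 1.61 (nano-TiO2 day 28) and 1.58 (control day 1). The middle step was about as large as the SD of its groups (0.14 each) and the others were smaller.

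The promoters of Ece1 and Ednrb are shown because these were the members that moved together between the control groups. The sequences are those of RefSeq (build GRCm38.p6), read 5′ to 3′ on the gene's strand from 250 bases before to 50 bases after the start of transcription. Capitals mark matches to any of 4 motifs on either strand: the TATA box TATAAA, the CCAAT box, the GC box GGGCGG and the AP-1 site TGANTCA. The motifs do not overlap here. The window of Ece1 lies at chr4:137861987-137862286 on the plus strand and belongs to the first of its 4 listed starts. That of Ednrb lies at chr14:103843652-103843951 on the minus strand.
Ece1: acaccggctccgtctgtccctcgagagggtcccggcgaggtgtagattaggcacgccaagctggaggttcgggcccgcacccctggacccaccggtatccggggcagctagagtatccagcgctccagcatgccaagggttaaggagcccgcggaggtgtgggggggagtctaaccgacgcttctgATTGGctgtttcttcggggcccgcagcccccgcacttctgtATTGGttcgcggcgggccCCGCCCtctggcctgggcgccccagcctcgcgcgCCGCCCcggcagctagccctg
Ednrb: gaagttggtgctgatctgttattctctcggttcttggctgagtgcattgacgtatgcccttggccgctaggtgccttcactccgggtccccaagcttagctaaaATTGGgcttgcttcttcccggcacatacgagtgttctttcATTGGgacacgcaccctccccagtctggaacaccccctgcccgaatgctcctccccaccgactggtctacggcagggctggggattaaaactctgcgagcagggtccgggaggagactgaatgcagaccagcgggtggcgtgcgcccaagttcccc
Both windows hold 2 matches to CCAAT, both in the reverse orientation. They begin at -64 and -23 in Ece1 and at -146 and -106 in Ednrb, counted from the start of transcription. CCAAT occurs in 37.4% of all 32851 promoter windows of this length, so its presence in both is common. Ece1 also holds 2 matches to GGGCGG, found in 35.7% of windows, at -5 and 29 and also reversed, and Ednrb none. Neither window holds TATAAA (13.6% of windows) or TGANTCA (7.81%). Promoter windows matched 7 of the 9 genes. Among the others, TATAAA was found at -30 in Agt and at -31 at the first of 2 starts of Ace, and Edn1 held 1 CCAAT match, at -203.

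The first comparison asked what differed from control 1 day after nano-TiO2. All 8 measured members had a higher mean in nano-TiO2 hearts, where 54.1% of all genes did, with a median log2 difference of 0.27 against 0.01 over all genes. None passed the adjusted threshold of 0.05 (limma, Benjamini-Hochberg over all 15503 genes), and 0% of genes did. At an unadjusted p under 0.05, 3 of 8 members were higher and 0 lower, beside 5.99% of all genes higher and 8.63% in either direction. Ednrb differed by 0.47 ± 0.17 (SE, 5 against 5 mice; 1.39-fold; adjusted p = 0.483), Agt by 0.69 ± 0.31 (1.62-fold; adjusted p = 0.547) and Ece1 by 0.34 ± 0.13 (1.26-fold; adjusted p = 0.497). The other Ednrb probe differed by 0.24 ± 0.16 (limma unadjusted p = 0.155), so the count of 3 of 8 rests on the probe chosen. The other members differed by between 0.05 (Agtr1a, 95% interval -0.49 to 0.58) and 0.34 (Ednra, -0.13 to 0.82). The Ednra value depended on single hearts, at 0.13 when control day 1 replicate 4 was left out and 0.53 when replicate 1 of that group was, and on the scan day, at -0.06, -0.03 and 0.92 on the 3 days. With the ratios that the scanner software computed, Agtr1a differed by -0.56.

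Beside these values stood higher means of several marker lists, of which no gene passed the threshold. At day 1 all 12 fibroblast genes were higher in nano-TiO2 hearts (median 0.36), as were all 8 tested adipocyte genes (median 2.47, 6 at an unadjusted p under 0.05) and 5 of 6 smooth muscle genes (median 1.22). All 7 atrial genes (median 1.49, 3 at an unadjusted p under 0.05), all 7 mesothelium genes (median 0.77, 5 at that threshold) and all 6 tested macrophage genes (median 0.41, 3 at that threshold) were higher too, while 7 of 9 cardiomyocyte genes were lower (median -0.08). The vessel wall lists moved little, with 12 of 14 endothelial genes higher (median 0.08) and 5 of 7 pericyte genes lower (median -0.07). The mean level of the fibroblast list (Gsn and Dcn the brightest) ran from -0.67 to 0.62 in nano-TiO2 day 1 hearts and from -0.65 to -0.07 in control day 1 hearts. That of the adipocyte list (Fabp4 and Cidea the brightest, Lep at 0 of 22 arrays) ran from -2.17 to 2.15 in nano-TiO2 day 1 hearts and from -2.20 to -1.002 in control day 1 hearts. Fabp4 and Cidea themselves varied little between hearts (SD 0.24 and 0.29). Adipoq, Cidec, Plin1, Cfd, Retn and Ucp1 carried this range (SD 1.45 to 3.08). The part of these lists in the member differences was not tested.

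At day 28 the direction was the other way for most members. Relative to control, 6 of 8 were lower in nano-TiO2 hearts and 2 higher, with a median log2 difference of -0.09 against -0.01 over all genes, of which 47.2% were higher. No gene passed the adjusted threshold (0% of 15503), and 2 of 8 members were lower at an unadjusted p under 0.05, beside 5.61% of all genes lower, 1.97% higher and 7.58% in either direction. Groups did not overlap in 0.0774% of all genes on the lower side and 0.0452% on the higher, and in 0 of 8 members. Ece1 differed by -0.37 ± 0.12 (SE, 6 against 6 mice), 1.30-fold lower (unadjusted p under 0.05, limma adjusted p = 0.635). Within the 6 slides that held both groups, 1 heart of each, its differences ran from -0.68 to -0.00088. The smallest were those of slide 2 (-0.00088) and slide 3 (-0.077). On the 3 scan days Ece1 differed by -0.62 to -0.22. With slide as a block it also differed by -0.37 (adjusted p = 0.697). Ednrb differed by -0.35 ± 0.16, 1.27-fold lower (adjusted p = 0.654), and was lower within 5 of 6 slides (-0.59 to 0.06). Its other probe differed by -0.21 ± 0.15 (limma unadjusted p = 0.166), so the count of 2 of 8 rests on the probe chosen. Nos3 differed by -0.15 ± 0.10 and Agtr1a by 0.32 ± 0.24.

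Agt differed by -0.51 ± 0.28 at day 28 (adjusted p = 0.690, limma), and this value changed when hearts with lung or liver transcripts were left out. Without the 5 arrays whose lung epithelium mean exceeded 0.5 or whose liver mean exceeded 1, of which 4 were control day 28 hearts, the difference was 0.17. The liver list was lower in nano-TiO2 hearts at day 28 with 6 of 6 tested genes (median -1.72, 0 past the threshold, 6 at an unadjusted p under 0.05), its mean level running from -1.14 to 0.15, against -1.06 to 3.02 in controls. The fibroblast list was lower with 12 of 12 genes (median -0.31) and the adipocyte list with 8 of 8 (median -1.90). Lower too were 7 of 7 atrial (median -1.04), 7 of 7 mesothelium (median -0.57), 6 of 6 macrophage (median -0.23), 5 of 6 smooth muscle (median -0.87) and 2 of 2 lung epithelium genes (median -1.83), while 8 of 9 cardiomyocyte genes were higher (median 0.12). Endothelial and pericyte genes moved little, with 8 of 14 (median 0.006) and 4 of 7 (median 0.02) higher. The lung epithelium genes passed the filter mainly through control day 28 hearts. Up to 4 of that list were above background in such a heart, against up to 1 in nano-TiO2 day 28. Their direction here was thus largely set by the filter. The part of all these lists in the values of Ece1 and Ednrb was not tested.

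The difference between the effects, day 28 minus day 1, asks whether nano-TiO2 hearts departed from their controls differently at the 2 times. It was negative for 7 of 8 members (median -0.35, against -0.02 over all genes, of which 45.5% were positive), and no gene passed the adjusted threshold (0% of 15503). Unadjusted p was under 0.05 for 4 of 8 members, all negative, beside 10.0% of all genes negative, 4.55% positive and 14.6% in either direction. These were Ece1 (-0.71 ± 0.18, adjusted p = 0.119, limma), Ednrb (-0.82 ± 0.23, adjusted p = 0.122), Agt (-1.20 ± 0.42, adjusted p = 0.191) and Nos3 (-0.32 ± 0.14, adjusted p = 0.306). The other Ednrb probe gave -0.45 ± 0.22 (limma unadjusted p = 0.0519), so the count of 4 of 8 rests on the probe chosen. Single hearts decided the call for Ece1 and Ednrb. Without nano-TiO2 day 1 replicate 1, the heart with the lowest atrial mean, in which 4 of the 7 atrial genes were still well above background, adjusted p was 0.0163 for Ece1 and 0.0265 for Ednrb. Without nano-TiO2 day 28 replicate 3 it was 0.0449 for Ece1 and 0.0423 for Ednrb.

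**Figure D2:**
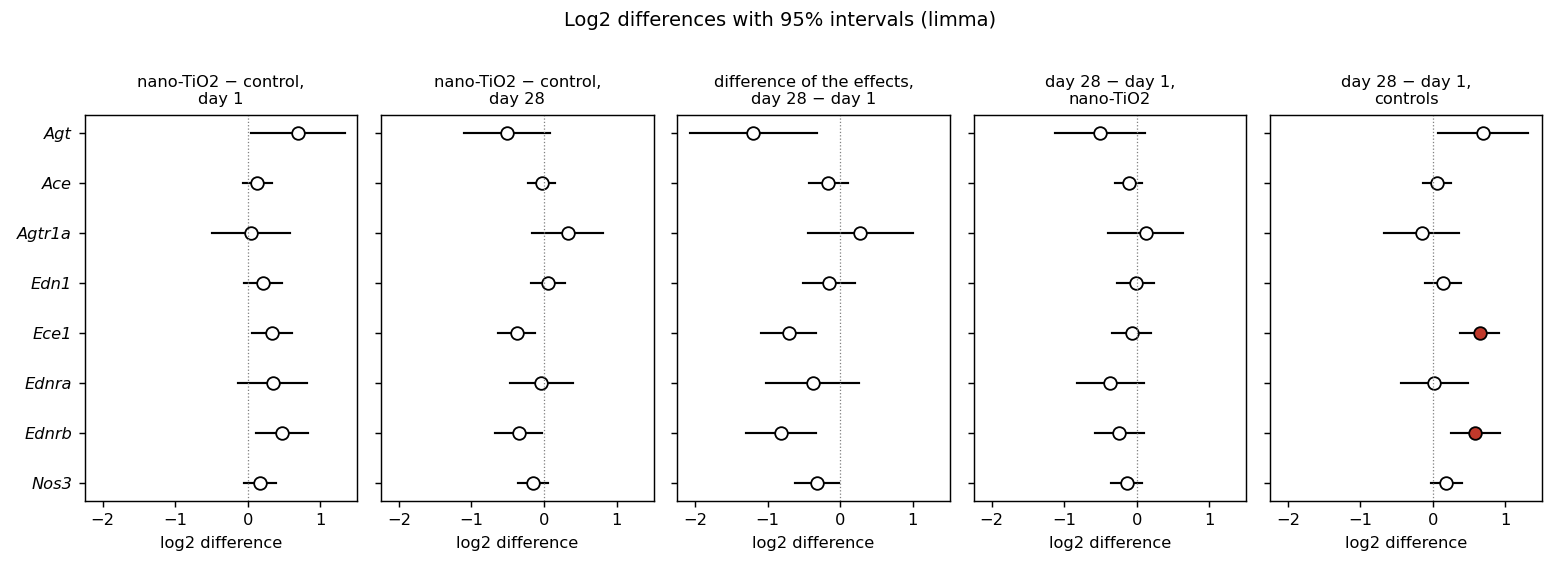
Log2 difference of each of the 8 measured genes in the 5 comparisons, with 95% intervals from limma; filled points passed an adjusted p of 0.05. Ece1 and Ednrb passed in day 28 against day 1 controls alone, and their intervals lie above 0 for nano-TiO2 at day 1 and below 0 at day 28 before adjustment. Ednrb is shown by the chosen probe, and its other probe had an unadjusted p above 0.05 in each comparison (limma).

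Between the control groups, day 28 against day 1, Ece1 and Ednrb rose. Ece1 was 1.56-fold higher at day 28 (0.64 ± 0.13, SE, 6 against 5 mice, adjusted p = 0.00487, limma) and Ednrb 1.496-fold (0.58 ± 0.16, adjusted p = 0.0258). Thus 2 of 8 members passed, beside 10.4% of all genes in either direction, 6.92% higher and 3.46% lower. For both, every day 28 control lay above every day 1 control, as for 4.64% of all genes, with 2.39% the other way and 7.02% in all. At an unadjusted p under 0.05 there were 3 of 8 members, all higher, beside 14.8% of all genes higher and 25.4% in either direction, and 7 of 8 members had a positive difference, beside 49.3%. Agt, the member added by the looser threshold, differed by 0.69 ± 0.30 (limma adjusted p = 0.145), with 5 of 6 day 28 controls above every day 1 control. Without control day 28 replicate 6 it passed (0.91, adjusted p = 0.0293), and without the 5 arrays with lung or liver transcripts it differed by 0.02. Nos3 differed by 0.18 ± 0.10 and Edn1 by 0.14 ± 0.12, while Ace (0.05 ± 0.09) and Ednra (0.02 ± 0.22) lay near 0. Agtr1a differed by -0.15 ± 0.25, and its other probe by -0.28 ± 0.10 (limma adjusted p = 0.0892). Under the alternatives Agtr1a lay between -0.68 and 0.06. With the ratios of the scanner software Ednra was instead lower (-0.50, adjusted p = 0.00893). The 95% intervals of Ace, Ednra and Agtr1a still reach 0.25, 0.48 and -0.67.

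The rise of Ece1 and Ednrb had the same direction within slides and scan days. On the 3 slides that held both control groups, the differences were 0.46 to 0.67 for Ece1 and 0.44 to 0.74 for Ednrb, and on the 3 scan days 0.48 to 0.78 for Ece1 and 0.49 to 0.62 for Ednrb. With slide as a block neither passed (Ece1 0.60, adjusted p = 0.0949; Ednrb 0.63, adjusted p = 0.0885), and neither did any other gene. With median centring of each array in place of loess, Ece1 differed by 0.90 (adjusted p = 0.180) and Ednrb by 0.47 (adjusted p = 0.257). The call on Ednrb was lost in further settings, in which Ece1 kept its call. The other Ednrb probe differed by 0.22 (adjusted p = 0.400) and the mean of both probes by 0.40 (adjusted p = 0.0728). Plain background subtraction gave 0.42 for Ednrb (adjusted p = 0.670), the ratios of the scanner software 0.33 (adjusted p = 0.470), Cy5 alone 0.22 (adjusted p = 0.174), normexp on all spots 0.57 (adjusted p = 0.369) and the series matrix 0.55 (adjusted p = 0.0573). The call was also lost without control day 1 replicate 2 (adjusted p = 0.0775) and without control day 28 replicate 4 (adjusted p = 0.0635). Without the 5 arrays with lung or liver transcripts, which leaves 2 day 28 controls, Ece1 differed by 0.58 (adjusted p = 0.294) and Ednrb by 0.44 (adjusted p = 0.517).

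Marker lists of several cell types differed between the control groups along with Ece1 and Ednrb. Past the threshold and higher at day 28 were 5 of 12 fibroblast, 5 of 6 smooth muscle, 6 of 8 adipocyte, 7 of 7 mesothelium, 4 of 6 macrophage, 3 of 7 atrial and 2 of 2 Schwann cell genes, as well as 1 of 2 lung epithelium and 1 of 6 liver genes. The lung epithelium genes were kept mainly through the control day 28 hearts, so their direction was largely set by the filter. Lower were 5 of 9 cardiomyocyte genes and 1 of 7 pericyte genes. The fibroblast list ran from 0.07 to 0.60 in control day 28 hearts and from -0.65 to -0.07 in control day 1 hearts. The smooth muscle list (Acta2 and Tagln the brightest) ran from 0.38 to 1.06 in control day 28 hearts and from -1.18 to -0.69 in control day 1 hearts. The adipocyte list ran from -0.01 to 2.68 in control day 28 hearts and from -2.20 to -1.002 in control day 1 hearts. Of the endothelial list, 1 of 14 genes passed and was higher, and its level ran from -0.10 to 0.09 in control day 28 hearts and from -0.28 to 0.16 in control day 1 hearts. Their part in the rise of Ece1 and Ednrb was not tested.

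In nano-TiO2 hearts, day 28 against day 1, no member passed and none had an unadjusted p under 0.05, beside 0% and 4.52% of all genes, and 7 of 8 had a negative difference where 43.3% of all genes had a positive one. Ece1 differed by -0.07 ± 0.13 and Ednrb by -0.24 ± 0.16. The largest differences were those of Agt (-0.51 ± 0.30) and Ednra (-0.36 ± 0.22, adjusted p = 0.905, limma). Ednra was the 1 member whose groups did not overlap, as in 0.477% of all genes in that direction. The comparisons at day 1, at day 28 and between days share their groups, so their values are given side by side and are not independent. The difference between the day 28 against day 1 contrasts of the nano-TiO2 and control groups is the same contrast as the difference of the nano-TiO2 effects above.

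Beyond the 9 members, 58 further genes of the 3 systems were listed, 55 had a probe and 40 were tested. Nano-TiO2 against control gave 0 of 40 past the threshold at either day. At an unadjusted p under 0.05, 2 of 40 were higher and 2 lower at day 1, beside 5.99% and 2.64% of all genes, and 0 higher and 3 lower at day 28, beside 1.97% and 5.61%. In controls, day 28 against day 1, 3 of 40 rose and 0 fell, beside 6.92% of all genes higher and 3.46% lower. These counts lie near the shares over all genes. The 3 lower at day 28 include Kng1, which passed the filter mainly through control day 28 hearts. Rgs2, a regulator that shortens signalling by the angiotensin and endothelin receptors, rose by 1.00 ± 0.21 (SE, 6 against 5 mice, adjusted p = 0.00605, limma). Gucy1a1, a subunit of the guanylate cyclase that nitric oxide activates, rose by 1.12 ± 0.34 (adjusted p = 0.0367), and Anpep, an aminopeptidase that trims angiotensin peptides, by 0.52 ± 0.14 (adjusted p = 0.0240).

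These 3 genes were named because control day 28 hearts exceeded control day 1 hearts, and the same controls serve the comparisons with nano-TiO2, so their values against control are a description. Rgs2 averaged 1.89 ± 0.45 in nano-TiO2 day 1 and 1.22 ± 0.37 in control day 1 hearts (difference 0.67 ± 0.22, SE, adjusted p = 0.478, limma), and 1.83 ± 0.43 in nano-TiO2 day 28 and 2.22 ± 0.25 in control day 28 hearts. Gucy1a1 averaged 3.60 ± 0.64 in nano-TiO2 day 1 and 2.63 ± 0.50 in control day 1 hearts, and 3.34 ± 0.79 in nano-TiO2 day 28 and 3.74 ± 0.47 in control day 28 hearts. Anpep averaged -0.25 ± 0.29 in nano-TiO2 day 1 and -0.53 ± 0.08 in control day 1 hearts, and -0.36 ± 0.28 in nano-TiO2 day 28 and -0.02 ± 0.28 in control day 28 hearts (difference at day 28 -0.35 ± 0.14, adjusted p = 0.635). For Rgs2 the difference of the effects was -1.05 ± 0.30 (adjusted p = 0.122) and for Anpep -0.63 ± 0.20 (adjusted p = 0.160).

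The other named genes of the 3 systems did not pass in any comparison. Gch1, which makes the cofactor of nitric oxide synthase, differed by -0.21 ± 0.09 at day 1 and by 0.13 ± 0.08 at day 28 (difference of the effects 0.34 ± 0.12, adjusted p = 0.185, limma). Rgs5, a regulator of receptor signalling abundant in pericytes, differed by -0.45 ± 0.15 between day 28 and day 1 controls (adjusted p = 0.0600) and by 0.25 ± 0.15 between nano-TiO2 and control at day 28. Lnpep, the aminopeptidase that binds angiotensin IV, had a difference of the effects of 0.21 ± 0.13. In nano-TiO2 hearts, day 28 against day 1, Agtrap, a protein that binds the angiotensin type 1 receptor, differed by -0.34 ± 0.18, Nosip, which interacts with nitric oxide synthase, by 0.09 ± 0.08 and Rgs5 by -0.31 ± 0.15. Kng1, the kinin precursor made in liver, was well above background in 0 of 6 nano-TiO2 day 28 hearts and 3 of 6 control day 28 hearts. It was also above background in 1 heart of each day 1 group, which just met the filter of 5 arrays. Its direction at day 28 was thus largely set by the filter. By group mean Kng1 was at least 1.64-fold lower in nano-TiO2 day 28 hearts (limma adjusted p = 0.635). That control mean is uneven, with hearts from 0.14 to 2.72 and an SD of 1.16. The liver list in the same controls ran from -1.06 to 3.02, and its part in Kng1 was not tested. Slc7a1, an arginine transporter, was above background in 0 of 5 nano-TiO2 day 1 hearts and 1 of 5 control day 1 hearts and is given no fold. The bound for Kng1 sets the mean of all hearts of the brighter group, detected or not, against that of the dimmer group. In the dimmer group, a signal below the lowest one above background on its array was set to that lowest signal.

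Hearts of 1 group also differed among themselves. After subtraction of group means, the 8 members were correlated with 12 marker lists over 22 hearts, and 17 of 96 relations passed an adjusted p of 0.05 (permutation within groups, two-sided, 100000 resamples), 16 of them positive, 14 of them by Spearman's rho as well. Ece1 held 7 of the 17, Nos3 4, Agt and Ednrb 2 each, Agtr1a and Ednra 1 each, and Ace and Edn1 none. The 1 negative relation was that of Ece1 with the cardiomyocyte list (r = -0.60). Its direction depended on the processing, since r was 0.75 with median centring, 0.16 with normexp on all spots and -0.02 with ratios scaled between arrays. It also lost its call in 11 of 22 omissions of a single heart, with r between -0.64 and -0.51. All hearts were read on the same arrays against the same reference, so shared processing is part of every such relation.

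Ece1 followed the fibroblast list most closely, at r = 0.902 and rho = 0.836 (adjusted p = 0.000240 and 0.00110, permutation, n = 22). Without the 2 hearts farthest from the median of the list, r was 0.830. It also followed the smooth muscle (r = 0.871, rho = 0.846), mesothelium (0.871 and 0.817), adipocyte (0.865 and 0.755) and Schwann cell lists (0.841 and 0.800), and with the endothelial list r was 0.102. Its relation with the atrial list passed as well, with r from 0.66 to 0.82 when single hearts were left out. That relation did not pass without the 3 arrays of lowest atrial mean (r = 0.639, adjusted p = 0.128, permutation). The fibroblast relation stayed between 0.828 and 0.954 under all alternatives to the processing that were run. Ednrb followed the macrophage list (Lyve1 and Csf1r the brightest) at r = 0.745 and rho = 0.702 (adjusted p = 0.00881 and 0.00967, permutation), and the fibroblast list at r = 0.692 and rho = 0.711 (adjusted p = 0.0308 and 0.00704). Without the 2 farthest hearts these were 0.705 and 0.618. The macrophage relation did not pass with plain subtraction (r = 0.590, adjusted p = 0.0692), scanner ratios (0.577, adjusted p = 0.0621), scaling (0.660, adjusted p = 0.0616), Cy5 alone (0.470, adjusted p = 0.165) or without the 5 arrays with lung or liver transcripts (0.746, adjusted p = 0.0560). The fibroblast relation of Ednrb did not pass in 7 alternatives, with r between 0.49 and 0.73, nor in 5 of 22 omissions of a single heart.

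Agtr1a followed the pericyte list (Kcnj8 and Pdgfrb the brightest) at r = 0.842 and rho = 0.851 (adjusted p = 0.000240 and 0.000960, permutation, n = 22), and at 0.824 without the 2 farthest hearts. This relation did not hold with plain background subtraction, where r was 0.263, with scaling (0.55) or with Cy5 alone (0.50). Agt followed the liver list at r = 0.800 and rho = 0.837 (adjusted p = 0.00341 and 0.00120, permutation), at 0.706 without the 2 farthest hearts at 0.659 (adjusted p = 0.101) without the 5 arrays with lung or liver transcripts and at 0.665 (adjusted p = 0.0668) with plain subtraction. Nos3 followed the endothelial list (Flt1 and Egfl7 the brightest, Erg at 0 of 22 arrays) at r = 0.751 and rho = 0.757 (adjusted p = 0.00881 and 0.00768, permutation), and Ednra at r = 0.651 and rho = 0.649 (adjusted p = 0.0315 and 0.0168). The endothelial relation of Nos3 did not pass with the scanner ratios (r = 0.145, adjusted p = 0.641), plain subtraction (0.546), scaling (0.363), Cy5 alone (0.376) or without the 3 arrays of lowest atrial mean (0.732). That of Ednra did not pass with plain subtraction (r = 0.031, adjusted p = 0.917), Cy5 alone (0.085, adjusted p = 0.891), scaling (0.354, adjusted p = 0.178), scanner ratios (0.546, adjusted p = 0.102) or without the arrays of lowest atrial mean (0.720) or those with lung or liver transcripts (0.705), nor in 5 of 22 omissions of a single heart. Nos3 also passed with the macrophage, smooth muscle and Schwann cell lists. With single hearts left out, r ran from 0.66 to 0.78, 0.48 to 0.67 and 0.46 to 0.64 in that order. These calls held in 10, 9 and 6 of 13 alternatives, and the endothelial call in 8. Agt passed with the macrophage list too (r 0.61 to 0.72 with single hearts left out), in 11 of 13 alternatives.

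**Figure D3:**
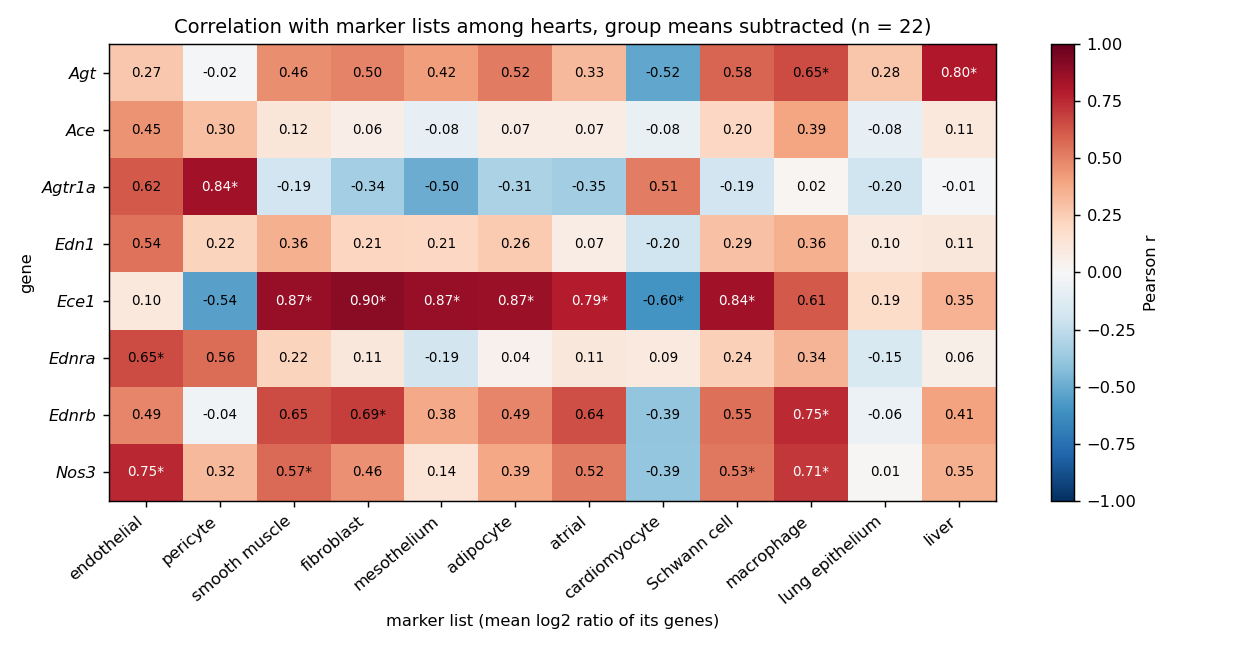
Pearson r between each of the 8 measured genes (down) and the mean of each of 12 marker lists (across) over 22 hearts with group means subtracted; asterisks mark an adjusted p under 0.05 by permutation. Ece1 has its high values with the fibroblast, smooth muscle, mesothelium, adipocyte and Schwann cell lists, Agtr1a with the pericyte list, Nos3 with the endothelial list and Agt with the liver list. Further asterisks stand at Nos3 with macrophage, smooth muscle and Schwann cell, at Agt with macrophage and at Ece1 with atrial and cardiomyocyte. The others are Ednrb with macrophage and fibroblast, and Ednra with endothelial.

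**Figure D4:**
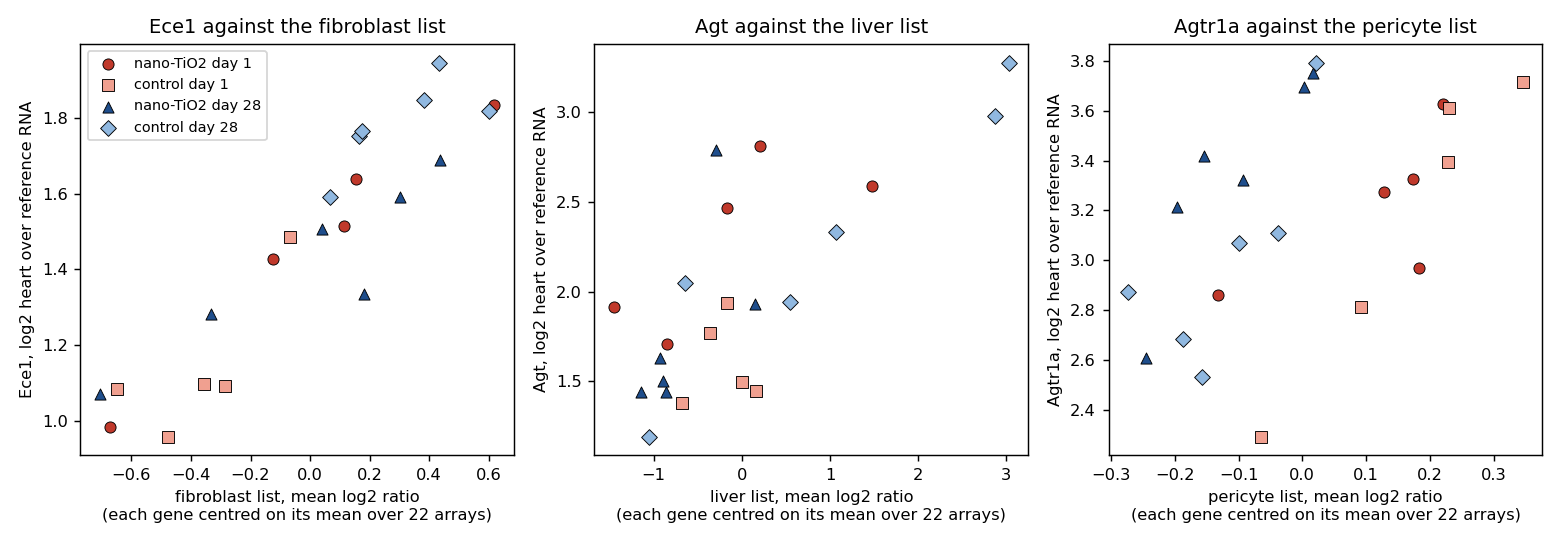
Log2 ratio of Ece1, Agt and Agtr1a in each heart (vertical) against the mean of the fibroblast, liver and pericyte lists (horizontal, each gene centred on its mean over 22 arrays), with the 4 groups by colour and shape. Control day 28 hearts lie at the upper end and 4 of 5 control day 1 hearts at the lower end of the Ece1 panel, and the 2 highest Agt values are the control day 28 hearts with liver means of 3.02 and 2.88.

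The genes most like each member, by the highest Pearson r over 22 hearts with group means subtracted, included none of the listed marker or pathway genes. For Agt they were Orm2 (0.887), Cyp2d12 (0.867) and Mup1 (0.867), all known as liver products in the mouse. For Agtr1a they were Acadl (0.924), Tmc7 (0.918) and Fam160a1 (0.916), and for Ace Zfp30 (0.807), Pnck (0.802) and Plxnb1 (0.790). For Edn1 they were Calr (0.803), Stim1 (0.754) and Dcp1a (0.733). For Ece1 they were Smo (0.945), Eef1a1 (0.940) and Nkain4 (0.938), for Ednra Smagp (0.936), Zfp30 (0.905) and Stx18 (0.904), and for Ednrb Dpt (0.862), an extracellular matrix protein, Itm2c (0.861) and Pam (0.837). For Nos3 they were Adcy5 (0.867), Lama4 (0.859), a laminin chain of vessel basement membranes, and Abca9 (0.839). These are the highest by construction among the 10477 named genes, less clone names and genes with a missing value on any array, and carry no p.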

How the data were processed

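Each of the 22 arrays carried heart RNA in Cy5 and the reference RNA in Cy3, per the labels. The deposited scanner files hold median intensity values for spots and their local background, not normalized. A log10 ratio of Cy5 to Cy3 in the same files came from Agilent Feature Extraction 10.7.3.1, per the file headers (9.5.3.1 per the submitters' processing notes). The deposited series matrix holds log2 values of the authors, whose method is not given in the sources used here. Those values correlated at r of 0.993 to 0.998 with log2 ratios computed here without background subtraction.

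Intensities were corrected with normexp (offset 50, spots of uneven background left out of its fit) and normalized within arrays by loess, in limma 3.58.1 (R 4.3.3, with data.table at 1.17.8). Outlier spots (0.299%) were dropped and 0 were saturated. The scanner called 32.7% to 52.8% of probes well above background. A probe was kept if that held in Cy5 on 5 or more arrays (19275 probes), and the brightest kept probe stood for its gene (15503 genes, 10477 with a symbol through RefSeq accessions). The limma fit had 4 group means over all arrays and Benjamini-Hochberg adjustment over all genes, and was tested on simulated data. The number of arrays limits the precision, and p rests on the spread between arrays, each of a different mouse. That spread also holds any differences in the piece of heart, the slide and the scan day. Array pairs correlated at r of 0.895 to 0.986. Figures were drawn with matplotlib 3.10.9 in Python 3.11.15.

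Named genes were the 9 members, the pathway genes past the threshold and the 2 with the smallest p in each direction per comparison, the 3 genes most like each member (clone names and genes with a missing value passed over) and the brightest marker genes. The members and lists were chosen with earlier results of these data known. Alternatives covered background, normalization, filter, probe choice, array weights, slide and scan day as blocks, and arrays left out.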

Additional observations from a re-analysis of the deposited data

Results flagged for a closer look

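In 10 of 80 sets of values tested (a gene or marker list in 1 group), 1 heart lay far from the rest by Dixon's test at the 95% level, where chance alone gives about 1 in 20. Of the members, Agt was high in nano-TiO2 day 28 replicate 6 (2.79, with the nearest heart at 1.93), Ednrb high in nano-TiO2 day 28 replicate 3 (1.85, nearest 1.18) and Ednra low in nano-TiO2 day 28 replicate 2 (2.90, nearest 3.52). In control day 1 replicate 5, Edn1 was low (-0.49, nearest 0.01), Ece1 high (1.49, nearest 1.10) and the adipocyte mean high (-1.002, nearest -2.08). In nano-TiO2 day 1 replicate 1 the atrial mean was -3.14 (nearest 0.53) and the smooth muscle mean -0.98 (nearest 0.28). The atrial mean of nano-TiO2 day 28 replicate 1 was -3.03 (nearest 0.12), and the pericyte mean of nano-TiO2 day 1 replicate 4 was -0.13 (nearest 0.13).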

How the results depend on the processing

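With all alternatives other than leaving out 1 array, 700 log2 differences of members kept their direction and side of the threshold, 47 changed sign, 13 lost their call and 2 gained one. The 17 correlations called lost their call in 49 cases under these alternatives and turned in direction in 2; the causes were not tested. Counts of calls are given below for day 28 against day 1 controls unless another comparison is named, where the main counts were 2 members and 1610 genes (66.6% higher), and 17 correlations. Where 1 member is left in these counts, it is Ece1. Normexp on all spots left 1 member, 78 genes (92.3% higher) and 54 correlations, with Agtr1a at -0.25 in the difference of effects and -0.40 between nano-TiO2 days, Ednra at -0.010 in controls and Ece1 with cardiomyocytes at r = 0.16. Plain subtraction left 1 member and 9 correlations, with 1 gene called for nano-TiO2 at day 1 and 1 at day 28. It put Agtr1a at -0.60 at day 1, Ace at 0.036, Edn1 at -0.039 and Ednra at 0.14 at day 28, and Ace at -0.20 and Ednra at -0.25 in controls. The scanner ratios gave 3865 genes (47.3% higher), 7 for nano-TiO2 at day 1 and 45 for the difference of effects. Their 2 called members in controls were Ece1 and Ednra, not Ednrb. They put Agtr1a at -0.56 at day 1, Ace at 0.17, Edn1 at -0.082 and Ednra at 0.21 at day 28, Ace at 0.080 and Ednra at 0.18 in the difference of effects, and Ace at -0.20, Ednra at -0.50 and Nos3 at -0.055 in controls. Median centring left 0 members, 87 genes (100% higher) and 71 correlations, with Ece1 and cardiomyocytes at r = 0.75, and moved the median of all genes to 0.17 at day 1, -0.10 at day 28 and 0.13 in controls.

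Scaling between arrays left 10 correlations and put Agtr1a at -0.0097 at day 1 and Ednra at 0.0064 at day 28 and -0.032 in controls. Cy5 alone left 1 member, with Agtr1a at -0.094 and Nos3 at -0.017 at day 1, Ace at 0.037 at day 28, Ace at 0.025 in the difference of effects, Ace at -0.011, Ednra at -0.032 and Nos3 at -0.029 in controls, and Ace at 0.014 and Ece1 at 0.0046 between nano-TiO2 days. The series matrix left 1 member, with Ednra at -0.017, and averaging probes left 1 member. Array weights gave 2972 genes, 10 for nano-TiO2 at day 1, and 1 member and 142 genes for the difference of effects. They put Agtr1a at -0.22 at day 1, Ace at -0.023 and Ednra at -0.18 in controls and Edn1 at 0.053 between nano-TiO2 days. Slide as a block left 0 members and 0 genes, with Agtr1a at 0.059. Scan day as a block gave 6 genes for the difference of effects and Ednra at -0.017.

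Of the alternatives chosen after seeing the data, leaving out the 3 arrays of lowest atrial mean gave 35 genes for nano-TiO2 at day 1, 1 member (Ece1) and 95 genes for the difference of effects, and Edn1 at 0.086 between nano-TiO2 days. Leaving out the 5 arrays with lung or liver transcripts left 0 members, 1 gene and 11 correlations. It put Ace at 0.032, Agt at 0.17, Edn1 at -0.0047 and Ednra at 0.066 at day 28, Ace at -0.0091 and Ednra at -0.083 in controls and Edn1 at 0.028 between nano-TiO2 days. The other probe put Agtr1a at -0.024 at day 1 and -0.073 between nano-TiO2 days.

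Leaving out each array in turn gave 0 to 21 genes for nano-TiO2 at day 1 (21 without nano-TiO2 day 1 replicate 1), 0 to 3 at day 28 (3 without control day 28 replicate 6), 0 to 314 for the difference of effects (314 without nano-TiO2 day 1 replicate 1) and 949 to 2068 in controls (949 without control day 1 replicate 2). Members called were 0 to 2 for the difference of effects and 1 to 3 in controls, and correlations 15 to 27. Differences that changed sign ran from -0.17 to 0.19 for Agtr1a at day 1, -0.068 to 0.0073 for Ace and -0.15 to 0.081 for Ednra at day 28, -0.022 to 0.098 for Ace and -0.20 to 0.21 for Ednra in controls, and -0.076 to 0.062 for Edn1 and -0.19 to 0.021 for Ece1 between nano-TiO2 days. Requiring 11 arrays above background left no lung epithelium gene and so no correlation with that list. No paired analysis was possible because the labels number animals and share no replicate number between groups; slides that held several groups were fitted as a block instead, as given above. Dim signal limits Edn1, which was well above background on 17 of 22 arrays, and Edn3.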
